A study of Mus musculus with 2 samples.

Results

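Keratins were followed through the tumour cells and the mammary gland cells of 2 single-cell RNA libraries. The 6 members were chosen by symbol: the basal keratins Krt5 and Krt14 and the luminal keratins Krt7, Krt8, Krt18 and Krt19, out of 53 symbols that name a keratin and 32285 genes in the matrix. All 6 were found. Their UMIs, which count distinct RNA molecules, were summed per library over tumour cells and gland cells. A tumour cell had at least 1 Epcam UMI per 10000 of the cell's UMIs (CP10K), no Ptprc UMI and under 20 CP10K of Wfdc18, and a gland cell had at least 20 CP10K of Wfdc18. The knockout library held 1787 tumour cells and 53 gland cells, and the control library held 2760 tumour cells and 7 gland cells, out of 14291 cells kept.

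The knockout library came from tumours of 4T1 cells, a mouse mammary carcinoma line used to model triple-negative breast cancer, with a guide RNA against Kindlin-2 (Fermt2). The control library came from tumours of 4T1 cells with a control guide. Both were grown in the mammary fat pad of BALB/c females (spelled BLB/c in the labels), and the tumours were taken at 150 mm3, digested with collagenase I and DNase for 45 min and sorted as live cells with or without mCherry. The labels name neither the fraction loaded, nor the ages, nor the number of tumours, nor whether the edited cells were 1 clone, and the host tissue was not edited. With 1 library per group there is no replicate error: every interval is a 95% interval for counting error alone, and no p-value can be given.

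Keratins are the intermediate filament proteins of epithelial cells. A filament is built from pairs of a type II chain (here Krt5, Krt7 and Krt8) and a type I chain (Krt14, Krt18 and Krt19). In the mammary gland the inner, luminal cells carry Krt8 with Krt18 and often Krt19 and Krt7, and the outer, contractile basal cells carry Krt5 with Krt14. Filaments are anchored to neighbouring cells at desmosomes and to the basement membrane at hemidesmosomes.

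All members are protein-coding genes in 2 clusters of the mouse genome (GRCm38, GENCODE vM21). Krt5 lay at chr15:101707070-101712898 (minus strand), Krt7 at chr15:101411043-101430313 (plus), Krt8 at chr15:101996698-102004482 (minus) and Krt18 at chr15:102028180-102032027 (plus). Krt14 lay at chr11:100203162-100207548 and Krt19 at chr11:100140810-100148665, both on the minus strand. Krt18 is a type I chain that sits in the type II cluster, and 23.7 kb separated it from Krt8. The promoter windows of Krt8 and Krt18, the pair whose levels varied together most closely from cell to cell, and of Krt5, which was nearly absent outside a few cells, are shown here. Each runs from 250 bases before to 50 after the RefSeq start (GRCm38.p6), 5′ to 3′ on the gene's strand, at chr15:102004293-102004592 for Krt8, chr15:102027966-102028265 for Krt18 and chr15:101712856-101713155 for Krt5. Capitals mark TATAAA on either strand.
Krt8: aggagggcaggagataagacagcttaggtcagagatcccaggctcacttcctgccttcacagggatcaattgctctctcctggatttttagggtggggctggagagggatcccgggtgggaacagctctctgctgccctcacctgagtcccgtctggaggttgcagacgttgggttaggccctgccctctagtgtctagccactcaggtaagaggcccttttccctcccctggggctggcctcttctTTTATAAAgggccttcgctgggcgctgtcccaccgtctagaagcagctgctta
Krt18: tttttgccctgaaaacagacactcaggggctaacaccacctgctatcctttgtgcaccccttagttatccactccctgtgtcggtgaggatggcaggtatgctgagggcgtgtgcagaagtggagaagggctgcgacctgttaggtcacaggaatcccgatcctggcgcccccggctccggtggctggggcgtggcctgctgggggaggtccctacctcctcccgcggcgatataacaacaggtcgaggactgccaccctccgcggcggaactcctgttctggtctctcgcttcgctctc
Krt5: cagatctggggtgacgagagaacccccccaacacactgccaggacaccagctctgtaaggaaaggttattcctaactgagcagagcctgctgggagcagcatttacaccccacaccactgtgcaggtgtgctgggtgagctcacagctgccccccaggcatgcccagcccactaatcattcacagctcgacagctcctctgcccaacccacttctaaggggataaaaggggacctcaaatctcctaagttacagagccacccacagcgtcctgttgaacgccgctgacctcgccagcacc
Windows of 300 bases were matched for 5 of 6 members (Krt19 had no entry). They were searched on both strands for TATAAA, for the GC box GGGCGG and for the AP-1 motif TGANTCA. The Krt8 window held overlapping TATAAA matches on both strands, at -3 and -1 from the RefSeq start. GGGCGG matched at 4 places in the Krt7 window, and Krt5, Krt14 and Krt18 held none of the motifs. Over 32817 promoters, 13.6% held TATAAA, 35.6% held GGGCGG and 7.81% held TGANTCA. The RefSeq starts lie 140 bases (Krt8) and 36 bases (Krt18) inside the genes as GENCODE draws them, so the TATAAA positions hold for the RefSeq start alone. For Krt14 and Krt7 they lie 1518 and 1360 bases inside, which puts the whole window in the gene, and these windows are not shown.

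The deposited barcodes carried 180774106 UMIs in the knockout library and 214163620 in the control library, and tumour cells had medians of 40420 and 36094 UMIs. The libraries shared 13 barcode sequences. Fermt2, the targeted gene, stood at 16.2 CPM (the gene's UMIs per 1000000 UMIs of the class) in knockout tumour cells and 38.6 CPM in control tumour cells. Gland cells were set apart by Wfdc18 alone, and their host origin was not tested. They had 107 CPM of Fermt2 in the knockout library and 139 CPM in the control library. In gland cells 17 of 17 luminal gland markers were seen in the knockout library and 14 of 17 in the control library. They summed to 6847 and 6221 CPM. In each library 6 of 9 basal gland markers were seen (summed level 43.3 CPM and 451 CPM). The gland class of each library thus carried luminal gland markers at higher levels than basal ones. In the tumour class 16 luminal markers were seen in the knockout and 15 in the control library, at 425 and 344 CPM. All 9 basal markers were seen there in both libraries, at 39.8 and 14.6 CPM. A Ptprc UMI, the mark of immune cells, was present in 6 of 53 knockout and 2 of 7 control gland cells. The list of 4T1 carcinoma markers (Cdh1, Epcam, Cldn3, Cldn4, Spp1, Mgp and H19) did not set the classes apart as a sum. It includes Epcam, which the tumour rule reads. The summed level was 4038 CPM in gland and 4538 CPM in tumour cells of the knockout library. In the control library it was 3821 CPM in gland and 5559 CPM in tumour cells. Single markers could differ: H19 was not seen in knockout gland cells, though it was seen in control gland cells. A small number of cells of the tumour class, called gland-marker cells here, had at least 3 CP10K of the basal gland markers together or of Prlr, Pgr and Cited1 together. The remaining tumour cells fell under both levels but still had luminal gland markers at 302 CPM in the knockout and 289 CPM in the control library, and basal ones at 4.06 and 5.33 CPM.

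**Figure D1:**
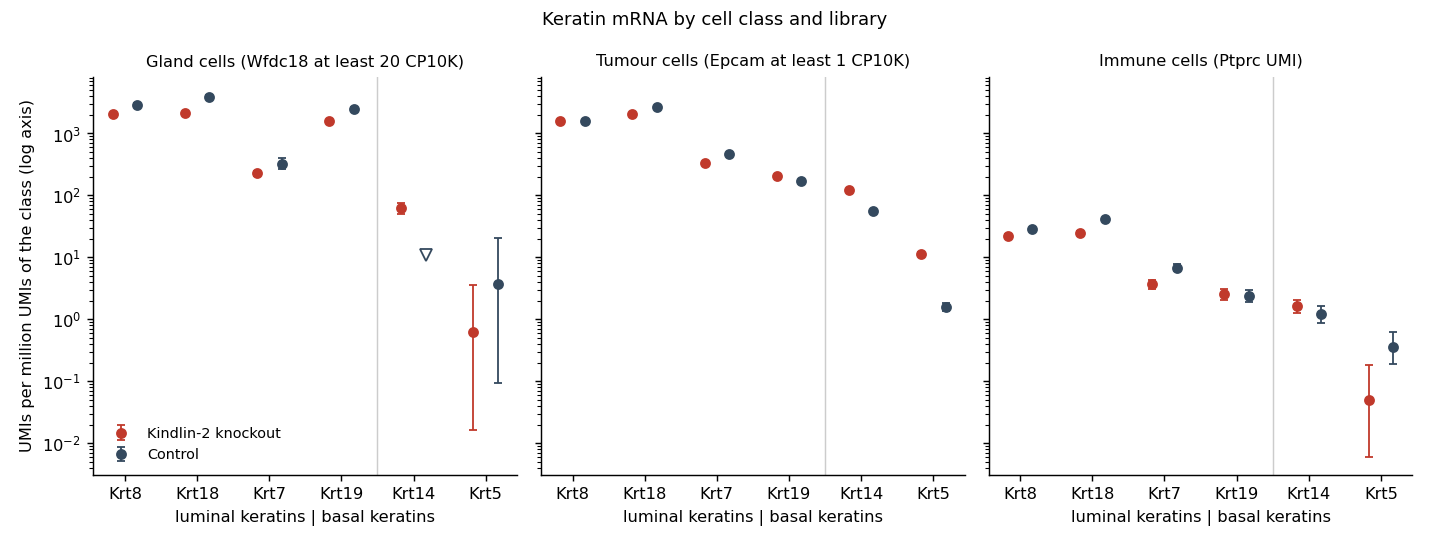
Level of each keratin in gland, tumour and immune cells, as CPM on a log axis, with 95% Poisson intervals. Knockout points stand left of control points, and the open triangle marks the level that 3 counts would give where no UMI was found (Krt14 in control gland cells). Krt8 and Krt18 were the highest in both tumour and gland cells, Krt19 was high in gland cells, and immune cells had at most 41.8 CPM of any keratin.

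The luminal keratins Krt8 and Krt18 made up most keratin RNA of the tumour cells in both libraries. Krt8, the type II chain of simple epithelia, stood at 1619 CPM (95% interval 1611 to 1628) in knockout tumour cells and at 1619 CPM (1612 to 1626) in control tumour cells, a log2 ratio of 0.00. Krt18, its type I partner, stood at 2083 CPM (2074 to 2093) in knockout cells and 2663 CPM (2653 to 2672) in control cells. This is 1.28-fold lower in the knockout library, a log2 ratio of -0.35 (-0.36 to -0.35). The pair therefore shifted in its ratio: 0.777 Krt8 UMIs were found per Krt18 UMI in knockout tumour cells (0.772 to 0.783) and 0.608 in control tumour cells (0.605 to 0.612). A Krt18 UMI was present in 97.9% of knockout and 99.2% of control tumour cells. The counts come from the 3′ ends of transcripts, so levels are not scaled by gene length, and capture may differ between genes.

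Krt7, a type II keratin of ducts and simple epithelia, was also lower in the knockout library. It stood at 339 CPM (335 to 343) in knockout and 471 CPM (467 to 475) in control tumour cells, 1.39-fold lower (log2 ratio -0.47, -0.49 to -0.45). Among single cells the 10th percentile, median and 90th percentile of Krt7 were 0.362, 2.02 and 6.998 CP10K in knockout cells and 0.997, 3.41 and 8.97 CP10K in control cells, lower in the knockout library at all 3 points. Leaving out the gland-marker cells gave 342 and 472 CPM. In cells of 20000 to 60000 UMIs the ratio was -0.59, or 1.51-fold lower, just past the 1.5-fold line.

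Krt19, the smallest type I keratin and one without a tail domain, stood at 203 CPM (200.007 to 206) in knockout and 169 CPM (167 to 172) in control tumour cells, a log2 ratio of 0.26 (0.23 to 0.29). The median cell was not higher: it had 0.737 CP10K in the knockout library and 0.838 CP10K in the control library. The difference sat in the cells highest in Krt19. In the knockout library 25 tumour cells (1.40%) had at least 20 CP10K of Krt19 and held 30.7% of its UMIs, against 22 control cells (0.797%) with 15.5% of its UMIs. Of these, 23 of 25 knockout cells and 21 of 22 control cells had at least 3 CP10K of Prlr, Pgr and Cited1 together, against 10 of 1762 and 9 of 2738 other tumour cells. Prlr and Pgr encode the prolactin and progesterone receptors, and with Cited1 they mark hormone-sensing luminal gland cells. All tumour cells at or over this level of the 3 genes numbered 33 in the knockout and 30 in the control library, a group found after Krt19 had been examined.

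These hormone-marker cells had less Vim and Spp1 than other tumour cells. Their Vim was 566 CPM in the knockout and 322 CPM in the control library, against 4111 and 3126 CPM in the tumour cells left without the gland-marker cells. Spp1, abundant in 4T1 cells, was 498 and 735 CPM in them, against 3504 and 4142 CPM. Krt19 stood at 3855 CPM in the knockout and 3835 CPM in the control hormone-marker cells. Without them and without the basal-marker cells described with Krt5, Krt19 stood at 139 CPM (137 to 142) in knockout and 143 CPM (141 to 145) in control tumour cells, and the log2 ratio was -0.04 (-0.07 to -0.00). In tumour cells with at least 10 CP10K of Vim it was 148 CPM in knockout and 149 CPM in control cells. Thus the higher Krt19 of the knockout tumour class was not seen once the gland-marker cells were left out. The hormone-marker cells were 1.85% of knockout and 1.09% of control tumour cells.

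**Figure D2:**
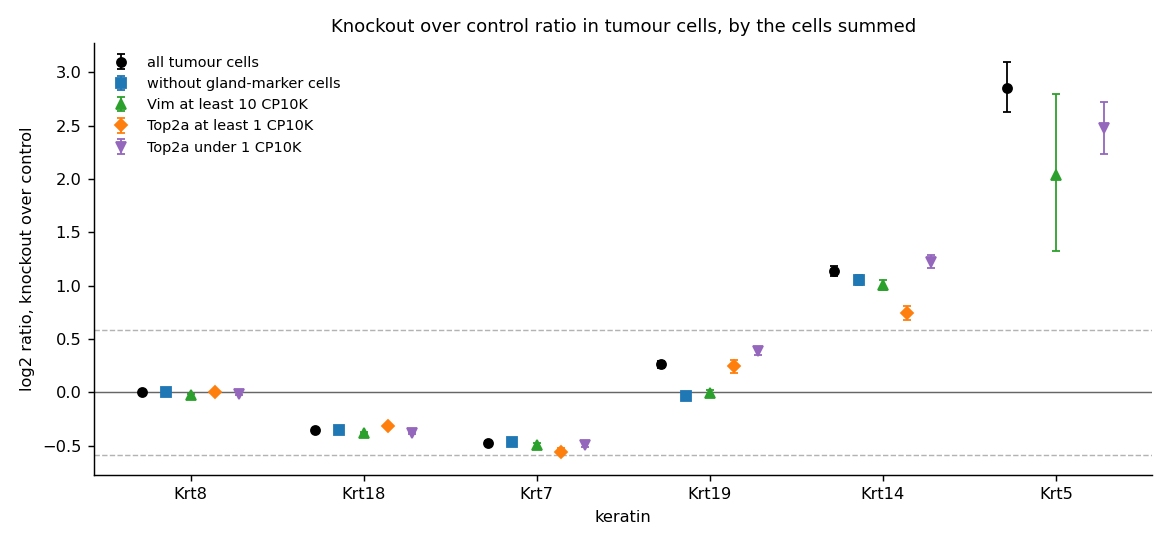
Log2 ratio of each keratin, knockout over control, in tumour cells (points, with 95% counting intervals), for all tumour cells and for 4 selections of them. The dashed lines mark 1.5-fold either way, and Krt5 is not drawn where the control library had no UMI. Krt14 stayed over the upper line in each selection drawn, Krt19 was near 0 in 2 of them, and Krt8 stayed near 0.

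Krt14, the type I keratin of basal epithelium, was higher in the knockout library. It stood at 124 CPM (122 to 127) in knockout and 56.5 CPM (55.1 to 57.9) in control tumour cells, 2.20-fold higher (log2 ratio 1.14, 1.09 to 1.18). A Krt14 UMI was found in 583 of 1787 knockout cells (32.6%) and 752 of 2760 control cells (27.2%). The cells that had one also had more: a median of 1.57 CP10K in the knockout and 0.631 CP10K in the control library. Most were outside the Krt5 cells, since 550 knockout and 741 control cells had Krt14 but no Krt5. Without the gland-marker cells Krt14 stood at 113 CPM (110.6 to 115.2) in knockout and 54.4 CPM (53.1 to 55.8) in control cells, 2.08-fold higher. No single cell held more than 2.61% of the Krt14 UMIs in the knockout or 4.24% in the control library.

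The difference in Krt14 was seen in tumour cells with and without Top2a. In cells with at least 1 CP10K of the mitosis gene Top2a, Krt14 stood at 153 CPM in the knockout and 91.2 CPM in the control library (log2 ratio 0.75). In cells under that level it stood at 102.3 and 43.8 CPM (log2 ratio 1.23). Cells at or over that Top2a level were 539 of 1787 in the knockout and 520 of 2760 in the control library, and they had the higher Krt14 in both libraries. Cells with a Krt14 UMI were also deeper, with medians of 49772 UMIs in the knockout and 48356 in the control library, against 37464 and 32836 UMIs in cells without one. In cells of 20000 to 60000 UMIs the log2 ratio of Krt14 was 1.17.

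Krt5, the type II partner of Krt14 in basal cells, stood at 11.5 CPM (10.8 to 12.2) in knockout and 1.59 CPM (1.36 to 1.83) in control tumour cells, 7.25-fold higher (log2 ratio 2.86, 2.63 to 3.09). It was confined to a few cells: 37 of 1787 in the knockout library (2.07%) and 12 of 2760 in the control library (0.435%), with up to 125 and 47 UMIs in 1 cell. In the knockout library 28 of these 37 cells, and in the control library 12 of 12, had at least 3 CP10K of the 9 basal gland markers together. These include Acta2, Myh11 and Cnn1 of the contractile apparatus, Oxtr, the oxytocin receptor, and Trp63, the transcription factor p63. Such basal markers were at that level in 6 of 1750 knockout and 8 of 2748 control tumour cells without Krt5. The basal-marker cells held 95.6% of the Krt5 UMIs of the knockout and 100% of those of the control library.

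The basal-marker cells, 34 in the knockout and 20 in the control library, were rich in basal keratins as a sum, but not in every cell. Basal keratins were over 50% of the keratin UMIs in 27 knockout and 11 control cells of this set. Luminal keratins alone were found in 4 knockout and 7 control cells, and 1 cell of each library had no keratin UMI. Krt5 stood at 875 CPM in the knockout and 378 CPM in the control library, Krt14 at 1133 and 636 CPM, and Krt17, a further basal type I keratin, at 808 and 505 CPM. Krt8 in them was 348 CPM in the knockout and 688 CPM in the control library, far under the 1613 and 1610 CPM of tumour cells other than gland-marker cells. Acta2 stood at 1411 CPM in the knockout and 837 CPM in the control basal-marker cells. Fermt2 was 103 CPM in the knockout and 237 CPM in the control basal-marker cells, against 13.96 and 37.1 CPM in tumour cells other than gland-marker cells. Markers of 4T1 carcinoma summed to 2132 CPM in the knockout and 5201 CPM in the control basal-marker cells. In tumour cells other than gland-marker cells they summed to 4603 and 5577 CPM, so the control set was near that level. Fibroblast markers summed to 127 CPM in the knockout and 4915 CPM in the control basal-marker cells. At least 2 fibroblast markers were present in 6 of 34 and 4 of 20 cells. In tumour cells other than gland-marker cells Krt5 was left with 19 UMIs in 8 of 1720 knockout cells, 47.4% of them in 1 cell, and with 0 UMIs in 2710 control cells.

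By the 1.5-fold rule, applied to genes with at least 50 UMIs over both libraries, 2 of 6 members were higher in knockout tumour cells (Krt14 and Krt5) and 0 of 6 were lower. Of 14904 genes, 14.1% were higher and 5.96% lower by the same rule (20.1% either way), and the median gene had a log2 ratio of 0.09. Without the gland-marker cells 1 of 5 members with enough UMIs was higher (Krt14), 0 of 5 were lower, and of 14430 genes 11.8% were higher and 6.68% lower (18.5% either way). The gland-marker cells were 3.75% of knockout and 1.81% of control tumour cells. Without them the log2 ratios were 1.05 for Krt14, 0.00 for Krt8, -0.04 for Krt19, -0.35 for Krt18 and -0.46 for Krt7.

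**Figure D3:**
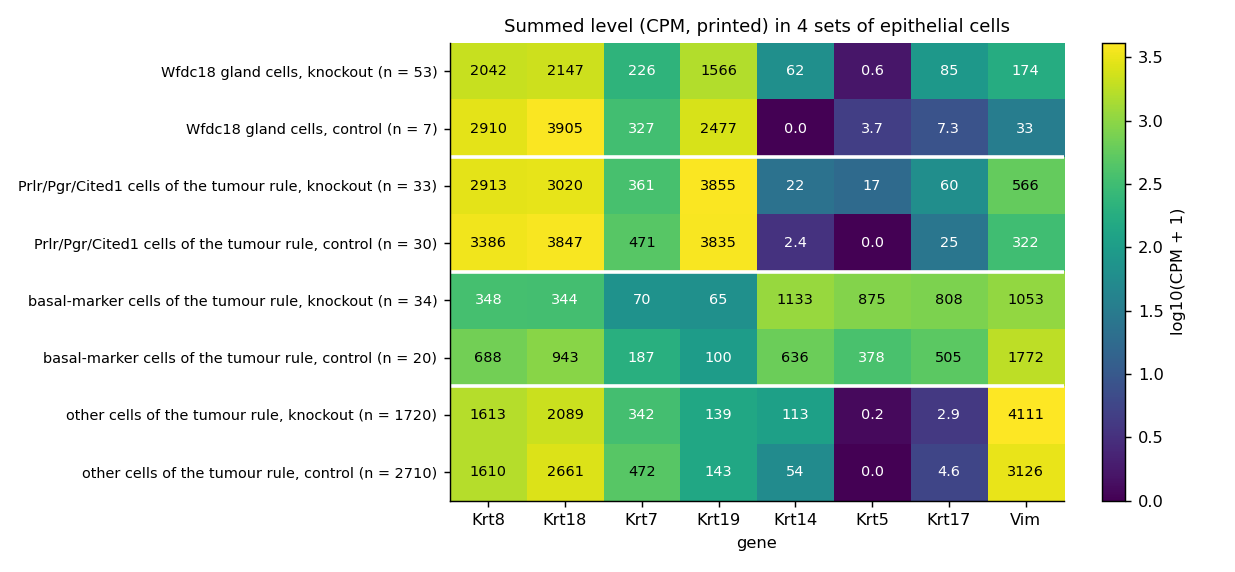
Level of the 6 keratins, Krt17 and Vim in 4 sets of cells: gland cells by Wfdc18, cells of the tumour rule with Prlr, Pgr and Cited1, cells of the tumour rule with basal gland markers, and the remaining cells of the tumour rule. Rows alternate knockout and control, colour is log10(CPM + 1) and the printed number is CPM; Krt5 and Krt17 stand out in the basal-marker rows, Krt19 in the gland and hormone-marker rows, and Vim in the remaining tumour cells.

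The balance of basal to luminal keratins moved with these members. Krt5 and Krt14 together gave 3.10% (3.04 to 3.15) of the UMIs of the 6 keratins in knockout tumour cells and 1.17% (1.14 to 1.19) in control tumour cells. Without the gland-marker cells the share was 2.63% in the knockout and 1.10% in the control library. In 29 knockout and 11 control tumour cells the basal keratins were over 50% of the keratin UMIs, and without the gland-marker cells 2 knockout and 0 control cells were left. The keratins together took 0.438% of all UMIs in knockout tumour cells and 0.498% in control tumour cells. Type II UMIs per type I UMI were 0.817 in the knockout and 0.724 in the control library, which follows the Krt8 to Krt18 ratio.

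Gland cells had luminal keratins at high levels, and few of them had a basal keratin UMI. Krt18 stood at 2147 CPM (2075 to 2220) in the 53 knockout and 3905 CPM (3674 to 4147) in the 7 control gland cells, 1.82-fold lower in the knockout (log2 ratio -0.86, -0.96 to -0.76). Krt19 stood at 1566 CPM (1505 to 1629) in knockout and 2477 CPM (2294 to 2672) in control gland cells, 1.58-fold lower (log2 ratio -0.66, -0.79 to -0.54). Krt8 was 2042 CPM in knockout and 2910 CPM in control gland cells (log2 ratio -0.51), and Krt7 was 226 and 327 CPM (log2 ratio -0.53). In single knockout gland cells the lowest, median and highest Krt19 were 0, 8.53 and 46.3 CP10K, and in control gland cells 4.74, 11.95 and 71.3 CP10K, so the cells overlapped. A single cell held 39.6% of the Krt18 and 40.4% of the Krt19 UMIs of the control gland cells.

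Basal keratins were found in few gland cells. Krt14 had 97 UMIs in 6 of 53 knockout gland cells, of which 61.9% lay in 1 cell, and 0 UMIs in the 7 control gland cells. Against the 3-count floor of 11.01 CPM over the control class, its 61.7 CPM in knockout gland cells was at least 5.60-fold higher, and without that 1 cell too few UMIs were left for a ratio. Krt5 had 1 UMI in each library. The basal share of keratin UMIs was 1.03% (0.838 to 1.26) in knockout and 0.0381% (0.000966 to 0.212) in control gland cells. The summed knockout gland values were thus near those of control tumour cells, which had 56.5 CPM of Krt14 and a basal share of 1.17%. The call rule gave 1 of 5 members higher and 2 of 5 lower in knockout gland cells, beside 20.8% higher and 18.8% lower (39.7% either way) of 5810 genes. With 7 control cells the count turned on single cells: it was 3 members in either direction, 1 with the cell highest in each keratin left out, 1 with the Wfdc18 threshold at 10 CP10K and 5 without cells that had a Ptprc UMI.

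Set against the tumour cells of the same library, gland cells differed above all in Krt19. It was 1566 CPM in gland and 203 CPM in tumour cells of the knockout library, 7.71-fold higher (log2 ratio 2.95, 2.89 to 3.01), and 2477 CPM in gland and 169 CPM in tumour cells of the control library, 14.6-fold higher (log2 ratio 3.87, 3.76 to 3.98). Krt14 was lower in gland than in tumour cells, 2.01-fold in the knockout library and at least 5.13-fold in the control library. The knockout value turned on few cells: its log2 ratio of -1.01 was -2.34 without the highest cell and -0.50, no longer past 1.5-fold, with Wfdc18 from 50 CP10K. Krt8 was 1.26-fold higher in gland than in tumour cells of the knockout library and 1.80-fold higher in the control library, while Krt18 had log2 ratios of 0.04 and 0.55. Krt7 was lower in gland cells, with log2 ratios of -0.58 and -0.53. Krt5 compared 1 gland UMI with 998 tumour UMIs in the knockout library (log2 ratio -4.18, -9.48 to -1.69) and 1 gland UMI with 182 in the control library (1.21, -4.10 to 3.71).

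By the 1.5-fold rule 1 of 6 members was higher and 2 of 6 lower in gland than tumour cells of the knockout library, where 28.9% of 13696 genes were higher and 20.9% lower (49.7% either way). In the control library 3 of 6 were higher and 1 of 6 lower, beside 33.1% higher and 20.8% lower (53.9% either way) of 13579 genes. The Krt5 call of the control library rests on 1 UMI, and with each cell weighted equally 2 members passed there in place of 4. Krt19 was higher in gland cells of both libraries in every alternative that left gland cells to count, with log2 ratios of 2.32 to 3.13 in the knockout and 3.51 to 4.09 in the control library.

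Basal and luminal keratins were found together in the same tumour cells. To compare cells of unlike depth, each was thinned to 5000 UMIs, which left out 49 knockout and 69 control tumour cells. Of the thinned tumour cells 16.3% (14.6 to 18.2) in the knockout and 10.7% (9.52 to 11.9) in the control library had at least 1 UMI of a basal and 1 of a luminal keratin. Unthinned shares were 32.6% in the knockout and 27.2% in the control library. Among immune cells, which should lack keratins, the thinned share was 0.250% in the knockout and 0.0515% in the control library (unthinned 0.636% and 0.499%), with median depths of 8702 and 9873 UMIs. The tumour shares thus lay far over the immune background. Without the gland-marker cells the thinned shares were 16.99% in knockout and 11.2% in control tumour cells. This set was thinned in a separate random draw. Both kinds were found in 285 knockout and 296 control cells there, against 284 and 287 among all tumour cells. The small rise in share therefore includes noise of the draw. Basal keratin without luminal keratin was found in 0.690% of knockout and 0.111% of control tumour cells, and in 0.0596% and 0% without the gland-marker cells, where 0 of 2648 control cells allows up to 0.113%.

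In thinned gland cells both kinds were found together in 2 of 42 knockout cells (4.76%, 0.582 to 16.2) and in 0 of 7 control cells, which allows up to 42.9%. All 7 control gland cells and 36 of 53 knockout gland cells had UMIs of all 4 luminal keratins before thinning, and 11 knockout gland cells had under 5000 UMIs. Krt14 made up nearly all of the tumour share: a thinned Krt14 UMI was present in 16.97% of knockout and 10.8% of control tumour cells, against 0.833% and 0.309% of immune cells. Krt7 was in 63.8% of knockout and 77.6% of control thinned tumour cells, and in 1.67% and 1.65% of immune cells.

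**Figure D4:**
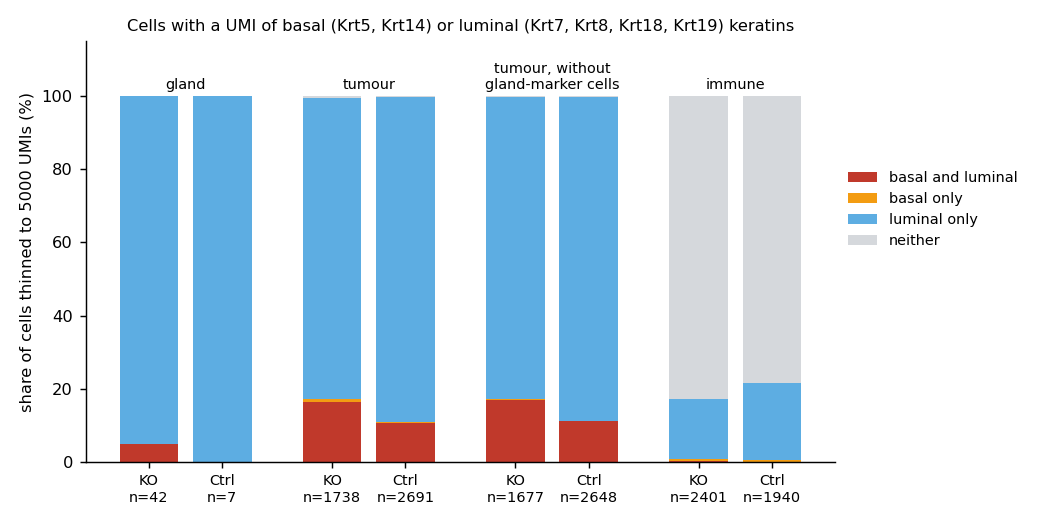
Share of cells, thinned to 5000 UMIs, with UMIs of both basal and luminal keratins, of basal keratins alone, of luminal keratins alone or of neither, in gland cells, tumour cells, tumour cells without the gland-marker cells and immune cells of the knockout (KO) and control (Ctrl) libraries, with the number of cells under each bar. Cells with both kinds were 16.3% of knockout and 10.7% of control tumour cells and nearly absent from immune cells.

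Pairs of members differed in how often they met in 1 thinned tumour cell. Krt5 and Krt14 were found together in 27 knockout cells, 1.55% of cells, where the product of their shares was 0.273%, and in 10 control cells (0.372%, product 0.0400%). Krt5 and Krt18 met less often than the product of their shares: in 0.575% of knockout cells (product 1.58%) and 0.223% of control cells (product 0.369%). Krt14 and Krt7 met in 13.1% of knockout cells (product 10.8%) and 9.29% of control cells (product 8.37%). The Krt5 pairs lay mostly in gland-marker cells: without them Krt5 and Krt14 met in 2 knockout and 0 control cells, and no thinned control cell had Krt5. Krt14 and Krt7 without them met in 14.7% of knockout cells (product 10.9%) and 10.2% of control cells (product 8.73%). Each set of cells was thinned in its own random draw. The pair was thus counted in 247 knockout and 270 control cells without gland-marker cells, but in 227 and 250 of all tumour cells. The higher shares therefore cannot be read as the effect of leaving these cells out.

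The members were spread over tumour cells in unlike ways. Before thinning, the 10% of cells highest in each keratin held 31.3% of the Krt8 UMIs in the knockout and 30.1% in the control library, 30.9% and 28.9% for Krt18, and 43.3% and 36.8% for Krt7. They held 58.5% of the Krt19 UMIs in the knockout and 50.7% in the control library, 81.6% and 86.5% for Krt14, and 100% for Krt5 in both. The Fano factor, the variance over the mean of thinned UMIs, was largest for Krt19, at 10.4 in the knockout and 10.5 in the control library, against 4.06 and 3.71 for Krt8 and 5.38 and 5.22 for Krt14. Without the gland-marker cells that of Krt19 was 2.72 in the knockout and 2.27 in the control library, while that of Krt14 was 4.60 and 3.60, then the largest of the 6 in the knockout library. In the control library Krt18 had 3.73 there.

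**Figure D5:**
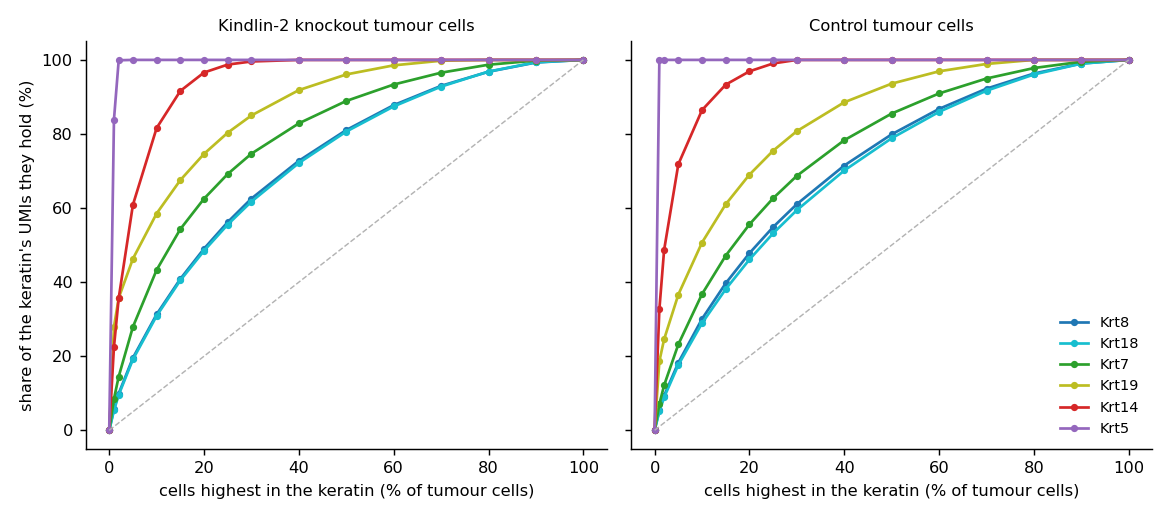
Share of each keratin's UMIs (y axis, %) held by the tumour cells highest in it (x axis, % of tumour cells) in the knockout library (left) and the control library (right). The dashed line is an even spread; Krt8 and Krt18 lie nearest to it, Krt19 and Krt14 bend far above it, and Krt5 reaches over 99% within 2% of cells in both libraries.

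Over tumour cells, Krt8 and Krt18 varied together most closely among the members, with a Pearson correlation of log-transformed CP10K of 0.85 over 1787 knockout cells and 0.81 over 2760 control cells. Krt7 had 0.58 and 0.53 with Krt8. Krt14 had 0.36 and 0.24 with Krt7 and -0.00 and -0.00 with Krt18, and without the gland-marker cells 0.51 and 0.31 with Krt7 and 0.20 and 0.08 with Krt18. The cells of a library share its depth and processing, so these values are descriptions.

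Among 10348 genes found in at least 10% of tumour cells of both libraries, the 5 most like Krt14, by the lower of the 2 libraries' correlations, were Anxa8, Sfn, Lama3, Lamb3 and S100a14. S100a14 had 0.57 in the knockout and 0.34 in the control library. Lama3 and Lamb3 encode laminin chains of the basement membrane under hemidesmosomes, and had 0.49 and 0.50 in the knockout and 0.35 each in the control library. Krt8 was nearest to Krt18, S100a6, Krt7, S100a10 and Anxa2, and Krt18 to Krt8, S100a6, Krt7, Capg and Anxa2. Krt7 was nearest to Krt8, Krt18, S100a6, Anxa3 and Anxa2. The genes most like Krt19 were Lgals3, Cd164, Aqp5, Epcam and Gipc2. Lgals3, a galactose-binding lectin, kept 0.61 in the knockout and 0.50 in the control library without the gland-marker cells, whereas Aqp5, a water channel, had 0.42 and 0.33 with them and 0.17 and 0.07 without them. For Krt5, the list was Nrtn, Apoe, Crip2, Kctd1 and Egr3. Nrtn, the growth factor neurturin, had 0.71 in the knockout and 0.53 in the control library, and 0.15 in the knockout library without the gland-marker cells.

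Of the other keratins, 8 had at least 50 UMIs over the tumour cells of both libraries. Krt15, Krt17 and Krt6a were higher in the knockout library, Krt23 was lower, and Krt10, Krt13, Krt16 and Krt80 passed neither line. That is 3 of 8 higher and 1 of 8 lower, beside 14.1% and 5.96% of all genes. Krt15, a basal type I keratin, stood at 22.0 CPM in knockout and 9.86 CPM in control tumour cells (log2 ratio 1.16), and at 16.5 and 9.66 CPM without the gland-marker cells (0.77). Krt17 stood at 14.1 CPM in knockout and 6.89 CPM in control tumour cells (1.03), but at 2.94 and 4.65 CPM without the gland-marker cells, a log2 ratio of -0.66, so its direction was the opposite there. Krt6a had 45 UMIs in knockout and 17 in control tumour cells, and 1 and 0 UMIs without the gland-marker cells. Krt23 had 106 and 225 UMIs, 1.61-fold lower in the knockout library. Krt10, a keratin of differentiating epidermis, had a log2 ratio of -0.31, Krt13 of -0.23, Krt16 of -0.47 and Krt80 of -0.15. In gland cells Krt17 had 133 UMIs in the knockout library, 96 of them in 1 cell, and 2 in the control library.

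Among partner genes of the filaments, 1 of 11 desmosome genes measured was higher and 1 lower in knockout tumour cells (median log2 ratio -0.08), where 14.1% of all genes were higher, 5.96% lower and the median was 0.09. Pkp1, plakophilin 1, stood at 4.80 CPM in knockout and 2.54 CPM in control cells, Pkp3 at 65.0 and 54.1 CPM and Pkp2 at 22.4 and 19.8 CPM. Dsc2, a desmosomal cadherin, stood at 2.34 CPM in knockout and 3.59 CPM in control cells, Jup (plakoglobin) at 85.7 and 105 CPM and Ppl (periplakin) at 44.6 and 54.5 CPM. Of 10 hemidesmosome genes 2 were higher and 0 lower (median 0.22). Col17a1, a transmembrane collagen of hemidesmosomes, stood at 3.73 CPM in knockout and 1.05 CPM in control cells, and at 1.51 and 0.793 CPM without the gland-marker cells. Lama3 stood at 42.3 CPM in knockout and 25.1 CPM in control cells, 1.69-fold higher, and at 41.0 and 24.8 CPM without the gland-marker cells. Dst had a log2 ratio of 0.08, Itgb4 of -0.03 and Lama5 of -0.25.

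Of 16 epithelial transcription factors measured, 3 were higher (Sox10, Foxa1 and Grhl1) and 3 lower (Ehf, Tfap2c and Elf3), with a median log2 ratio of 0.16. Of all genes 14.1% were higher and 5.96% lower, with a median of 0.09. With the gland-marker cells left out, 13 factors had enough UMIs, of which 0 were higher and 5 lower, beside 11.8% and 6.68% of all genes. The 5 lower were Tfap2c, Trp63, Ehf, Elf3 and Klf4. Trp63 was itself used to choose the cells left out, and Klf4, with a log2 ratio of -0.59, was just past the line. Sox10, a factor of neural crest and of mammary basal and progenitor cells, stood at 1.65 CPM in knockout and 0.383 CPM in control tumour cells. Sox10 was left with 27 and 14 UMIs when the gland-marker cells were left out. Foxa1, a factor of hormone-sensing luminal cells, had log2 ratios of 0.67 with the gland-marker cells and 0.23 without them. Tfap2c, an AP-2 family factor, stood at 2.78 CPM in knockout and 4.78 CPM in control cells, and at 0.962 and 4.34 CPM without the gland-marker cells. Grhl1 was at 0.749 CPM in knockout and 0.488 CPM in control cells, Ehf at 1.67 and 3.08 CPM, and Elf3 at 7.03 and 10.8 CPM. Of 5 other intermediate filament genes 1 was higher and none lower (median 0.40), beside 14.1% and 5.96% of all genes. The higher gene, Nes (nestin), stood at 34.8 CPM in knockout and 21.8 CPM in control cells. Vim, vimentin, stood at 4011 CPM in knockout and 3100 CPM in control tumour cells, and Lmna at 1485 and 997 CPM. Lmnb1 and Lmnb2 had log2 ratios of 0.40 and 0.36.

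Of 8 basal gland markers measured, 6 were higher in the knockout tumour class and 0 lower (median log2 ratio 1.496), beside 14.1% higher and 5.96% lower of all genes. They were led by Oxtr, Myh11 and Acta2 with log2 ratios of 2.604, 2.52 and 2.25. Actg2, Trp63 and Mylk had the lowest, 0.83, 0.30 and 0.11. With the gland-marker cells left out, which were chosen on these genes, 3 still had 50 UMIs. Of these 1 was higher (Acta2) and 1 lower (Trp63). Acta2 then had only 40 UMIs in the knockout and 35 in the control library. Its log2 ratio was 0.62 (-0.07 to 1.32), so the counting interval spans 0. Of 14 luminal gland markers 8 were higher and 1 lower (median 0.70), and without the gland-marker cells 5 of 10 were higher and 2 lower, beside 11.8% and 6.68% of all genes. Cited1, one of those 2, was itself used to choose the cells left out. Esr1 and Areg had log2 ratios of 0.13 and 0.17, Cd14 was lower with -0.91, and Aldh1a3 and Prom1 were higher with 1.97 and 1.70. The highest was Csn3, with 14.1 CPM in knockout and 1.35 CPM in control tumour cells. Csn3, a milk casein of gland cells, was also 12.1 CPM in knockout and 0.397 CPM in control tumour cells other than gland-marker cells, and its part in the keratin values was not tested.

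Epcam, which the tumour rule reads, moved with some keratins. Cells without Ptprc that had an Epcam UMI but under 1 CP10K were not screened for host markers and may include host cells. In them Krt8 was 1032 CPM in the knockout and 1218 CPM in the control library. In tumour cells of 1 to 3 CP10K it was 1264 and 1450 CPM, and in tumour cells over that 1843 and 1723 CPM. Krt14 was 16.4 and 11.5 CPM under the threshold, 46.5 and 32.0 CPM from 1 to 3 CP10K and 173 and 71.5 CPM over that. Krt19 was 47.8 and 53.8 CPM, then 66.6 and 95.1 CPM, then 289 and 215 CPM. Cells just outside the rule thus carried Krt8 and Krt18 at over 1000 CPM and little Krt14.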

How the data were processed

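The deposited matrix holds UMI counts per gene and cell barcode in whole numbers for 2 droplet libraries (10x, 3′ v2, per the labels). Per the submitters' processing notes the tool was Cell Ranger 2.1.1 with mm10, but the matrix header gives version 6.0.1, so the version behind these counts is uncertain. Barcode suffixes were matched to the libraries by the library number in the labels alone, and 0 columns belonged to other samples.

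A barcode was dropped under 500 UMIs, under 200 genes or over 20% mitochondrial UMIs. Scrublet (scanpy 1.11.5) was run on each library and its doublets were removed: 201 knockout (2.89%) and 217 control barcodes (2.80%). UMIs were summed per class and library and scaled to the class total (CPM). Intervals are Poisson (CPM), Clopper-Pearson (shares) and conditional binomial (ratios), at 95%. A ratio needed 50 UMIs over both groups and was called past 1.5-fold; a count of 0 was set to 3 counts over the class. Only the ratio, its interval and the 1.5-fold call were tested on simulated data, drawn as Poisson counts. The work used pandas 2.3.3, scipy 1.17.1 and numpy 2.4.6 under Python 3.11.15, with plots from matplotlib 3.10.9. Sequences came from RefSeq and positions from GENCODE.

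The members, marker lists and gene lists were chosen with earlier results of these data known. The text names all members, other keratins with 50 UMIs, the 3 highest and 3 lowest of each list (1 gene is not reported here) and the 5 genes most like each member; other genes, and the marker levels that set gland-marker cells apart, were chosen after their values were seen.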

Additional observations from a re-analysis of the deposited data

Results flagged for a closer look

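Krt19 had opposite directions in the 2 classes. Its log2 ratio, knockout over control, was 0.26 in tumour cells and -0.66 in gland cells, and both counting intervals lay off 0. The difference between the classes was not tested, since each group is 1 library, and the control gland class is 7 cells. In tumour cells without gland-marker cells the log2 ratio of Krt19 was -0.04.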

How the results depend on the processing

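No paired analysis was possible because each group is 1 library. In tumour cells the direction of Krt5, Krt14, Krt7, Krt18 and Krt19 was the same under all 10 other filters, thresholds and scalings, with log2 ratios of 2.23 to 3.10 for Krt5, 1.04 to 1.27 for Krt14, -0.57 to -0.26 for Krt7, -0.45 to -0.26 for Krt18 and 0.17 to 0.43 for Krt19; Krt8 ranged from -0.09 to 0.10. Under the 6 selections chosen after seeing the data, Krt14 ranged from 0.75 to 1.23 and Krt19 from -0.04 to 0.45, below 0 in 2 of 6. The count of 2 members past 1.5-fold was 1 without the basal-marker cells and 1 without all gland-marker cells, and it was 3 at 20000 to 60000 UMIs, where Krt7 passed too. In gland cells the count of 3 was 1 with Wfdc18 from 10 CP10K, 5 without Ptprc cells and 1 without the cell highest in each keratin; with Wfdc18 from 50 CP10K no control gland cell was left, so no ratio could be had. The count of 4 in gland over tumour cells of the control library was 2 with each cell weighted equally, and that of 3 in the knockout library ranged from 2 to 4.

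The basal share of keratin UMIs in knockout and control tumour cells was 3.58% and 1.37% with Epcam from 3 CP10K, 2.99% and 1.06% with each cell weighted equally, 3.01% and 1.11% without the highest cells, 2.54% and 1.08% without basal-marker cells, 2.69% and 1.14% with Vim from 10 CP10K, 3.69% and 1.81% with Top2a from 1 CP10K, 2.64% and 0.926% under it, 2.43% and 0.850% at 20000 to 60000 UMIs, and 2.63% and 1.10% without gland-marker cells. In knockout gland cells it was 0.778% and 1.44% with Wfdc18 from 10 and from 50 CP10K, 1.32% with equal weights and 0.464% without the highest cells, and in control gland cells 0% without Ptprc cells and without the highest cells. Co-detection in knockout and control tumour cells was 6.64% and 3.20% thinned to 1000 UMIs and 22.4% and 15.5% thinned to 10000 UMIs. The centring shift was 0.09 in tumour cells and -0.01 in gland cells. The control gland values rest on 7 cells.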
